A study of Mus musculus with 12 samples.

Results

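The pyruvate dehydrogenase complex and the citric acid cycle were followed in mouse liver through 9 genes, Pdha1, Pdhb, Cs, Idh3a, Ogdh, Suclg1, Sucla2, Fh1 and Mdh2. They were picked by gene symbol, with earlier results of these data known, and make up 9 of the 25033 entries of the Ribo-seq table. All 9 were above 0 in each of the 6 libraries. Livers came from male C57BL/6 mice at an age of 16 weeks, after 8 weeks on their diet. HFD mice (n = 3 libraries) ate a high-fat diet, and LYC mice (n = 3 libraries) ate a high-fat diet with lycopene, the red carotenoid of tomatoes. A high-fat diet was therefore common to both groups, and livers of mice on standard feed were not analysed here. Lycopene is named in the titles and sources of the LYC samples, while their treatment entry gives the high-fat diet alone. The titles number 3 libraries in each group and the study calls them biological replicates, but the protocol also speaks of pooling material of the groups, so p-values measure the spread between these libraries. Ribo-seq sequences the RNA fragments shielded by ribosomes (footprints), and the comparison asks which of these genes carried more or fewer footprints in LYC than in HFD.

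The pyruvate dehydrogenase complex sits in the mitochondrial matrix and turns pyruvate into acetyl-CoA, which links glycolysis to the cycle. The cycle then oxidises the acetyl group to carbon dioxide, hands the electrons to NADH and to succinate dehydrogenase, and supplies citrate for fat synthesis and oxaloacetate for glucose synthesis. In liver it stands at the meeting point of fat oxidation, gluconeogenesis and amino acid use.

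The authors deposited RPKM, reads scaled to the length of the gene and to the reads of the library, for each gene and library. Read numbers were recovered from the steps between RPKM values and gave totals of 834410 to 4405541 reads in HFD and 311050 to 412116 reads in LYC. HFD had 6.91 times the median total of LYC, so 1 read on a gene of 1 kb was worth 0.227 to 1.20 RPKM in HFD and 2.43 to 3.21 RPKM in LYC. Reads on small non-coding RNA genes were 3.08% to 4.52% of the total in HFD and 9.09% to 12.9% in LYC. Of 7 hepatocyte markers 6 were listed, with a summed RPKM of 41205 to 44138 in HFD and 28787 to 37329 in LYC, lower in each LYC library, and none of the 6 was called. Summed markers of Kupffer cells (6 genes, 92.5 to 130 RPKM in HFD, 85.8 to 153 in LYC), endothelial cells (5 genes, 52.0 to 70.8 and 11.9 to 102, 1 called lower), stellate cells (6 genes, 83.0 to 159 and 80.8 to 122) and blood (4 genes, 593 to 1388 and 774 to 911) overlapped between the groups. Cholangiocyte markers (4 genes) summed to 4.36 to 5.09 RPKM in HFD and 0.775 to 2.34 in LYC, and lymphocyte markers (5 genes) to 0.805 to 2.54 and 0 to 3.65, with Nkg7 at 0 in each library. The part of depth, small RNA and cell makeup in the results below was not tested.

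Each gene was tested between LYC and HFD with limma, two-sided, on the log2 of RPKM divided by a TMM factor, the scaling that edgeR computes between libraries. Adding 1 RPKM before the log2 keeps the fold change of low genes too small. Genes with a log2 fold change beyond 1 in either direction and an unadjusted p under 0.01 count as called below, and "rose" or "fell" is kept for them. A filter on recovered reads left 5796 genes, and all 9 members passed it, Idh3a through HFD. Over these 5796 genes the median log2 fold change was -0.24 after scaling and -0.36 with RPKM as deposited. Among the 2516 genes with at least 10 reads in each library it was 0.07 after scaling, so the median of -0.24 used below depends on genes with few reads.

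Of the 9 members 1 rose and 0 fell, where 5.38% of all genes tested were called higher and 8.25% lower, so a single call among 9 genes is close to the background. Fh1, which encodes fumarase, was that gene. These shares lean the other way among the 2516 genes with at least 10 reads in each library, 8 of the members included, where 10.1% were called higher and 5.05% lower, and with edgeR on recovered reads, where 8.44% and 6.92% were. The log2 fold change of 6 members was above 0 and that of 3, Idh3a included, was below 0. Of the 5796 genes tested 2168 were above 0, and the median was 0.38 over the members against -0.24 over all genes tested. With edgeR and with DESeq2 on recovered reads 8 members were above 0, while the median of all genes moved to -0.03 and -0.02. Without LYC2 the members' median was 0.14 and without LYC1 it was 0.23. In RPKM as deposited the LYC libraries lay wholly above the HFD libraries for 2 members, Pdhb and Fh1, and wholly below for 0, beside 9.87% and 27.5% of all genes tested. After division by the TMM factor they lay wholly above for 4, Cs and Mdh2 added, and wholly below for 0, beside 14.9% and 24.1%. At an adjusted p below 0.05 and with no limit on the fold, 1 member passed as higher and 0 as lower, where 5.45% and 7.25% of all genes did. As bulk liver was measured, fewer cells of a type and less RNA per cell cannot be told apart.

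**Figure D1:**
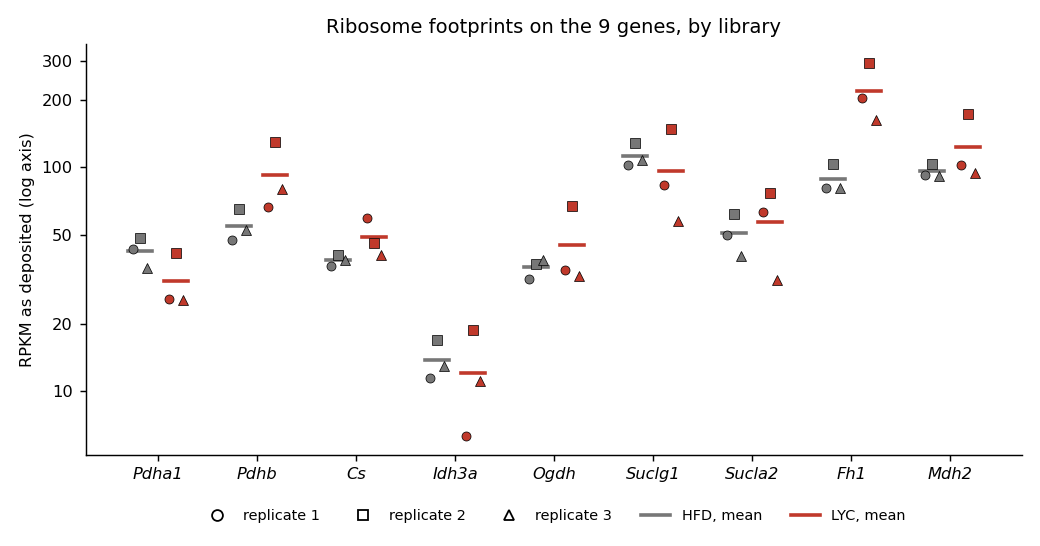
RPKM as deposited (log axis) of the 9 genes in each of the 3 HFD (grey) and 3 LYC (red) Ribo-seq libraries. Symbols mark the replicate number and horizontal bars the mean of a group. The LYC libraries of Fh1 lie between 164 and 294 RPKM, above the HFD libraries at 80.8 to 103, and the groups of 7 genes overlap.

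Ribosomes begin reading each of these genes at an ATG, and the bases around it are shown for 8 members (GENCODE vM21, GRCm38), so that the gene that rose can be set beside the others. A member was kept if a transcript marked as principal held the annotated ATG with at least 10 bases before it. Idh3a had no transcript that met all of these conditions. Each line gives 10 bases before and 6 after the ATG, which is in capitals, on the strand of the gene.
Pdha1: gctgcgctccATGaggaag
Pdhb: cacgggcaagATGgcggtg
Cs: ttcgcccgccATGgctcta
Ogdh: tcaggacaaaATGtttcat
Suclg1: tcattgggggATGaccgca
Sucla2: ggactcagaaATGgcggcg
Fh1: cagcagcaccATGtaccgc
Mdh2: cgccctagccATGctgtcc
The base 3 positions before the ATG is a purine in 7 of the 8, Pdha1 being the exception with a T, and the base right after the ATG is a G in 3 of the 8, Pdhb, Cs and Sucla2. Fh1 has the purine and lacks the G, as do Ogdh, Suclg1 and Mdh2, which were not called.

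Pyruvate enters through the pyruvate dehydrogenase complex, whose first enzyme is built from an alpha subunit encoded by Pdha1 (chrX:160122219-160138430, GRCm38) and a beta subunit encoded by Pdhb (chr14:8165991-8173303). Pdha1 had 43.4, 48.2 and 35.7 RPKM in HFD1, HFD2 and HFD3 and 25.8, 41.7 and 25.5 RPKM in LYC1, LYC2 and LYC3. LYC1 and LYC3 were below the HFD range and LYC2 was inside it. The log2 fold change of Pdha1 was -0.33 ± 0.25 (SE), which did not pass limma's test (adjusted p = 0.388).

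Pdhb had 47.2, 65.0 and 52.5 RPKM in the HFD libraries and 66.6, 130 and 80.1 RPKM in the LYC libraries. All LYC libraries were above all HFD libraries, although LYC1 exceeded HFD2 only narrowly. Its log2 fold change of 0.83 ± 0.25 (SE) stayed under the fold limit of the call, with a limma p of 0.0096 and an adjusted p of 0.0650. Tests on the recovered reads did call Pdhb, at 1.01 with edgeR's quasi-likelihood test (adjusted p = 0.0211) and at 1.03 with DESeq2 (adjusted p = 0.00311). With RPKM as deposited it was at 0.69 (limma adjusted p = 0.165) and without LYC2 at 0.63, and the limma adjusted p ran up to 0.216 with a library left out.

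The 2 subunits of this enzyme were thus on opposite sides of 0, and their ratio within a library was set apart by group. A factor common to all genes of a library cannot move such a ratio, but a trend on gene length can. With that trend removed Pdha1 was at -0.27 and Pdhb at 0.70, and the ratios were not recomputed. Pdha1 over Pdhb was 0.920, 0.742 and 0.680 in HFD and 0.387, 0.321 and 0.318 in LYC. Each LYC ratio was below each HFD ratio, with a difference of -1.19 on the log2 scale, or 2.27-fold. An exact permutation test of 3 against 3 libraries gave p = 0.1, the smallest value that this design allows, and 0.225 after adjustment over the 9 ratios examined. How often the ratio of 2 other genes separates the groups was not examined, so no background stands beside these ratios. Leaving out each library in turn kept the log2 difference between -1.28 and -1.06. Pdha1 shares 603 of its 2848 exon bases with Map3k15 on the opposite strand, which had 0 to 1.40 RPKM, and Pdha2, its near copy, was listed at 0 in all 6 libraries.

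Among the other subunits of the complex, Dld, the dehydrogenase it shares with the alpha-ketoglutarate complex, had 33.8, 44.4 and 31.1 RPKM in HFD and 49.0, 81.9 and 59.7 in LYC. Its log2 fold change of 0.91 ± 0.24 (SE) had an adjusted p of 0.0410 with limma and was under the fold limit. Dlat, the acetyltransferase core, had a log2 fold change of -0.38 (limma adjusted p = 0.450) with overlapping libraries and was at -0.20 without HFD2 and -0.22 without LYC3. Pdhx, the protein that binds Dld to the core, had 0.83 (limma adjusted p = 0.101) without overlap. None of these 3 was called with limma, while edgeR and DESeq2 on recovered reads called Dld at 1.07 (adjusted p = 0.0116) and 1.08 (adjusted p = 0.000385), and limma did so without LYC1, at 1.01. The limma adjusted p of Dld ran up to 0.173 among the alternatives. Pdha1 over Dlat was 2.89 to 4.51 in HFD and 3.73 to 4.24 in LYC, so that ratio overlapped where Pdha1 over Pdhb did not.

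The complex is switched off by kinases and on by phosphatases. Of 7 genes listed 4 were tested and 0 were called, beside 5.38% of all genes tested called higher and 8.25% lower, and their median log2 fold change was -0.52 against -0.24 over all genes. Pdp2 passed the filter through HFD, as 3 HFD libraries and 2 LYC libraries reached its limit. Pdpr passed it through LYC, with 2 HFD libraries and 3 LYC libraries. The median of these genes is therefore given as a description only. Pdk1, a kinase and the gene of this list with the smallest p, had 13.9, 20.5 and 13.2 RPKM in HFD and 3.42, 13.0 and 10.8 in LYC. Its LYC libraries were all below the HFD libraries, LYC2 only narrowly, and the log2 fold change of -0.76 ± 0.42 (SE) did not pass limma's test (adjusted p = 0.249). It was -0.30 without LYC1, its lowest library, and -1.01 without LYC2. Lias, the lipoyl synthase that makes the cofactor carried by Dlat and Dlst, was the only tested gene of 3 for lipoylation and was called lower, at -1.23 ± 0.37 (SE). It had 9.16, 10.7 and 9.97 RPKM in HFD and 3.52, 5.57 and 1.68 RPKM in LYC, from 72, 136 and 24 reads and from 4, 5 and 2 reads. Lias passed the filter through HFD, as 3 HFD libraries and 1 LYC library reached its limit, so its call is given as a description only. Its limma p was 0.0095 (adjusted p = 0.0647) and the call was lost in 15 of 17 alternatives, whose p ran from 0.0030 to 0.0367.

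Citrate synthase, encoded by Cs (chr10:128337727-128362482), joins acetyl-CoA to oxaloacetate. Cs had 36.4, 40.5 and 38.8 RPKM in HFD and 59.6, 46.0 and 40.5 RPKM in LYC. LYC1 stood highest, LYC3 was level with HFD2, and the groups overlapped. Over the TMM factor they did not, at 34.4 to 39.0 in HFD and 43.2 to 68.7 in LYC. The log2 fold change was 0.45 ± 0.27 (SE, limma adjusted p = 0.277), and 0.23 without LYC1.

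Idh3a (chr9:54586511-54604662) encodes the catalytic subunit of the NAD-linked isocitrate dehydrogenase. It was the lowest of the 9 genes in both groups, at 11.4, 16.9 and 13.0 RPKM in HFD and 6.33, 18.7 and 11.1 RPKM in LYC. LYC1 was lowest and LYC2 highest of all 6 libraries, with 6 and 14 reads behind them and 11 in LYC3. Idh3a passed the filter through HFD, as 3 HFD libraries and 2 LYC libraries reached its limit. Its test is therefore given as a description only. The log2 fold change of -0.15 ± 0.35 (SE, limma adjusted p = 0.794) has a 95% interval from -0.95 to 0.65, and its sign turned with the count tests. It was 0.15 without LYC1 and -0.43 without LYC2. Idh3g, a regulatory subunit of the same enzyme, rose by 1.10 ± 0.25 (SE) on the log2 scale (limma adjusted p = 0.0264), from 21.1, 36.5 and 28.2 RPKM in HFD to 49.97, 68.2 and 49.7 RPKM in LYC. The call of Idh3g ended with RPKM as deposited (0.96), with a pseudocount of 5 RPKM (0.996), with the trend on gene length removed (0.91), without HFD1 (0.95) and at p below 0.001, and its limma adjusted p then ran up to 0.126. Idh3b, the other regulatory subunit, had -0.03 (limma adjusted p = 0.946).

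Idh3a over Idh3g was 0.541, 0.463 and 0.460 in HFD and 0.127, 0.274 and 0.224 in LYC. All LYC ratios were below all HFD ratios, and the difference was -1.30 on the log2 scale (exact permutation p = 0.1, adjusted 0.225). As Idh3a passed the filter through HFD and Idh3g was itself called higher, this ratio is given as a description only. Without LYC1, whose Idh3a value rests on 6 reads, the difference was -0.98. Idh3a over Idh3b overlapped, at 0.162 to 0.216 in HFD and 0.131 to 0.232 in LYC.

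Ogdh (chr11:6291597-6359094) encodes the decarboxylase of the alpha-ketoglutarate dehydrogenase complex, which makes succinyl-CoA. Ogdh had 31.6, 37.0 and 38.8 RPKM in HFD and 34.9, 67.1 and 32.6 RPKM in LYC. LYC2 alone was above the HFD range, and the log2 fold change was 0.38 ± 0.29 (SE, limma adjusted p = 0.386). Without LYC2 it was 0.14. Dlst, the succinyltransferase core of that complex, spread from 32.4 to 127 RPKM in LYC and from 39.4 to 53.2 in HFD, with a log2 fold change of 0.63 (limma adjusted p = 0.319). Without LYC3 Dlst was called, at 1.09 (limma adjusted p = 0.0336), and without LYC2 it was at 0.21. Ogdh over Dlst overlapped between the groups, at 0.694 to 0.984 in HFD and 0.530 to 1.01 in LYC.

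Succinyl-CoA ligase splits succinyl-CoA with gain of a nucleoside triphosphate. It pairs the alpha subunit from Suclg1 (chr6:73248505-73276907) with the ATP-forming beta subunit from Sucla2 (chr14:73552786-73596144) or the GTP-forming one from Suclg2. Suclg1 had 102, 128 and 108 RPKM in HFD and 83.8, 148 and 57.5 RPKM in LYC. Sucla2 had 50.01, 61.9 and 40.4 RPKM in HFD and 63.1, 76.7 and 31.4 RPKM in LYC. In both genes LYC2 was the highest and LYC3 the lowest of all 6 libraries. Neither passed limma's test, with log2 fold changes of -0.19 ± 0.31 (SE, adjusted p = 0.703) for Suclg1 and 0.23 ± 0.33 (SE, adjusted p = 0.664) for Sucla2. Without LYC3 these became 0.12 and 0.59, and without LYC2 they became -0.47 and 0.053. Sucla2 was at 0.046 without LYC1 and at 0.12 without HFD3.

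Suclg1 over Sucla2 was 2.04, 2.07 and 2.66 in HFD and 1.33, 1.93 and 1.83 in LYC. Again no LYC ratio reached the HFD range, but HFD1 and LYC2 lay close together, and the difference of -0.42 on the log2 scale reached the smallest exact permutation p of 0.1 (adjusted 0.225). Without LYC1 this difference was -0.26. Suclg2 had 0.29 (limma adjusted p = 0.430) and 0.18 without HFD3, and Sucla2 over Suclg2 spread from 0.498 to 1.32 in LYC, around HFD values of 0.852 to 0.994.

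Succinate dehydrogenase follows, and its Sdhb subunit, which carries the iron-sulfur clusters, rose from 126, 132 and 121 RPKM in HFD to 320, 393 and 263 RPKM in LYC. The log2 fold change was 1.48 ± 0.22 (SE, limma adjusted p = 0.0058). The other subunits of this enzyme had values on both sides of 0. Sdhc, which helps to anchor it in the membrane, had 121 to 147 RPKM in HFD and 61.7 to 90.0 RPKM in LYC, wholly lower, with a log2 fold change of -0.64 that was not called (limma adjusted p = 0.104). The other anchor, Sdhd, had 0.19 (limma adjusted p = 0.588), and Sdha, the flavoprotein, had 0.78 (limma adjusted p = 0.0559). Over the 9 other enzymes of the cycle 2 rose, Sdhb and Idh3g, and 0 fell, beside 5.38% and 8.25% of all genes tested, and the median log2 fold change was 0.63 against -0.24 over all genes. Among genes with at least 10 reads in each library those shares were 10.1% and 5.05% and the median 0.07.

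Fh1 (chr1:175601378-175625635) encodes fumarase, which adds water to fumarate to give malate. Fh1 had 81.1, 103 and 80.8 RPKM in HFD and 203, 294 and 164 RPKM in LYC, from 361, 742 and 110 reads and 131, 149 and 110 reads. Each LYC library was above each HFD library, and the lowest LYC value was well clear of the highest HFD value. The means were 88.4 ± 12.8 RPKM in HFD and 220 ± 66.6 RPKM in LYC (SD, n = 3 each), a ratio of 2.49. Fh1 rose by 1.41 ± 0.24 (SE) on the log2 scale, with a 95% interval of 0.87 to 1.96 (limma's adjusted p = 0.0094). It was called in each of 18 alternatives, with log2 fold changes of 1.26 to 1.61 and adjusted p of 2.08e-08 to 0.0658. Kmo lies across Fh1 on the opposite strand but shares 0 of its 2636 exon bases. Kmo itself had 78.2 to 120 RPKM in HFD and 63.1 to 97.8 in LYC, so no LYC library of the neighbour lay above its HFD range.

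Malate dehydrogenase of the mitochondrion, encoded by Mdh2 (chr5:135778649-135790386), regenerates oxaloacetate. Mdh2 had 92.7, 104 and 91.6 RPKM in HFD and 103, 173 and 94.6 RPKM in LYC. LYC1 and LYC3 were inside the HFD range and LYC2 was above it, while over the TMM factor HFD lay at 88.1 to 93.8 and LYC at 101 to 163 without overlap. The log2 fold change was 0.45 ± 0.24 (SE, limma adjusted p = 0.245), and 0.26 without LYC2. Fh1 over Mdh2, enzymes of neighbouring steps, was 0.875, 0.995 and 0.882 in HFD and 1.98, 1.70 and 1.73 in LYC. Per gene length, Fh1 footprints were under those of Mdh2 in HFD1 and HFD3, level with them in HFD2, and well above them in each LYC library. The difference was 0.97 on the log2 scale (exact permutation p = 0.1, adjusted 0.225), and 0.90 to 1.03 with each library left out.

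**Figure D2:**
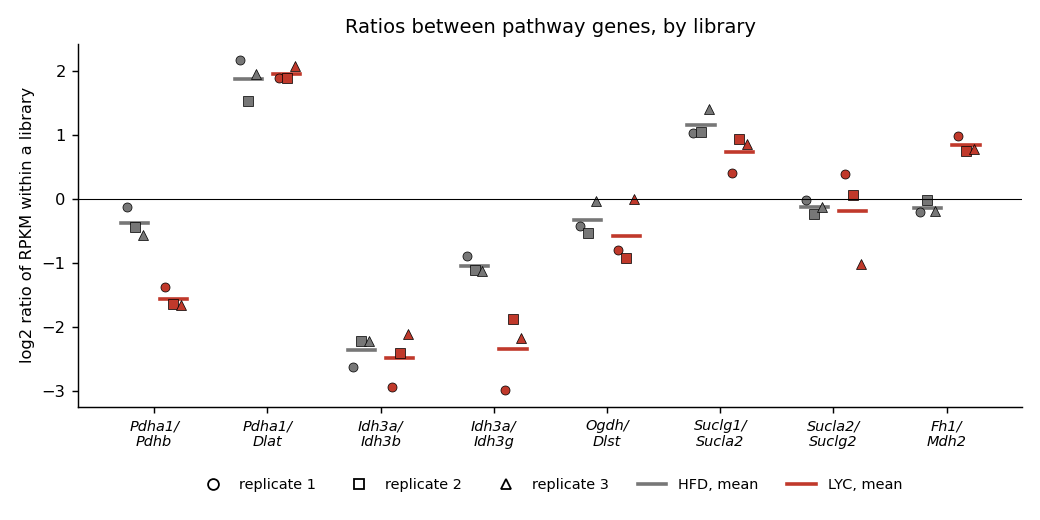
Log2 ratio of the RPKM of gene pairs within a library, for 8 of the 9 pairs tested, in 3 HFD (grey) and 3 LYC (red) libraries, with bars at the group means. Of the ratios shown 3 are lower in each LYC library (Pdha1/Pdhb, Idh3a/Idh3g, Suclg1/Sucla2), 1 is higher (Fh1/Mdh2) and the others overlap. Idh3a passed the filter through HFD, so its ratios are a description only. How often other gene pairs separate was not examined. Among single genes tested, 9.87% lay wholly higher and 27.5% wholly lower in LYC as deposited.

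The order of the 9 genes by mean RPKM, a level per gene length, ran in HFD from Suclg1 (113), Mdh2 (96.0) and Fh1 (88.4) through Pdhb (54.9), Sucla2 (50.8), Pdha1 (42.4), Cs (38.5) and Ogdh (35.8) to Idh3a (13.8). In LYC it ran from Fh1 (220), Mdh2 (124), Suclg1 (96.4) and Pdhb (92.2) through Sucla2 (57.1), Cs (48.7), Ogdh (44.9) and Pdha1 (31.0) to Idh3a (12.1). By library, Fh1 was at rank 3 in each HFD library and at rank 1 in each LYC library. Pdha1 was at rank 6 in HFD1 and HFD2 and at rank 8 in HFD3 and in each LYC library. Between neighbours in these orders the ranges of the libraries were apart only for Fh1 over Pdhb and Ogdh over Idh3a in HFD, and for Pdha1 over Idh3a in LYC. All other neighbours overlapped between libraries, although within a library 4 of the 6 overlapping pairs in HFD and 4 of the 7 in LYC kept 1 order in 3 of 3 libraries, Suclg1 over Mdh2 over Fh1 in HFD and Fh1 over Mdh2 over Suclg1 in LYC among them. Fh1 took 16.2% to 17.1% of the summed RPKM of the 9 genes in HFD and 29.5% to 31.5% in LYC, while Pdha1 took 7.15% to 8.75% and 3.98% to 4.75%. The sum itself was 496, 605 and 499 RPKM in HFD and 646, 994 and 537 RPKM in LYC, where LYC3 lay below HFD2. Without Fh1 the sum was 415 to 501 and 373 to 701 RPKM, so the groups overlapped with and without it.

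The coefficient of variation (SD over mean) was larger in LYC than in HFD for all 9 members, as for 79.5% of all genes tested. It ran from 20.2% for Cs to 51.9% for Idh3a in LYC, where the mean number of reads per library corresponds to a counting error of 8.77% for Fh1 to 31.1% for Idh3a. LYC2 was the highest LYC library for 8 members, all but Cs, against 43.9% of all genes tested, and for 7 members once RPKM was divided by the TMM factor, against 34.3%. LYC3 was the highest for 0 members on either scale, against 35.6% and 36.5% of all genes tested. HFD2 was the highest HFD library for 8 members, all but Ogdh, as deposited, against 63.9% of all genes tested, and for 5 after scaling, against 36.8%.

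Around the cycle, 3 of 8 cytosolic or NADP-linked counterparts rose and 0 fell, beside 5.38% and 8.25% of all genes tested, and their median log2 fold change was 0.44 against -0.24. Mdh1, the cytosolic malate dehydrogenase, had 282, 257 and 196 RPKM in HFD and 570, 786 and 568 RPKM in LYC, a log2 fold change of 1.52 ± 0.23 (SE, limma adjusted p = 0.0068). Got1, the cytosolic aspartate aminotransferase that works with Mdh1 in the malate-aspartate shuttle, had 49.9, 86.8 and 62.3 RPKM in HFD and 148, 270 and 182 RPKM in LYC. Its log2 fold change of 1.71 ± 0.25 (SE, limma adjusted p = 0.0058) was the highest of the 40 tested genes in and around the pathway. Idh1, the cytosolic NADP-linked isocitrate dehydrogenase, rose by 1.07 ± 0.23 (SE, limma adjusted p = 0.0230), from 122 to 157 RPKM in HFD to 207 to 354 RPKM in LYC. The mitochondrial partners of these enzymes were not called, with log2 fold changes of 0.45 for Mdh2, -0.26 for Got2 (limma adjusted p = 0.535) and 0.53 for Idh2 (limma adjusted p = 0.400).

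Of 9 genes for pyruvate entry and for refilling the cycle 6 were tested, 1 rose and 0 fell, beside 5.38% and 8.25% of all genes tested, and the median log2 fold change was -0.03 against -0.24. Mpc2, a subunit of the mitochondrial pyruvate carrier, had 84.2, 91.8 and 72.9 RPKM in HFD and 154, 179 and 135 RPKM in LYC. Its log2 fold change was 1.04 ± 0.21 (SE, limma adjusted p = 0.0196), and with the trend on gene length removed it was 0.62 and no longer called. Mpc1, the other subunit of the carrier, had -0.11 (limma adjusted p = 0.808). Counting all 39 genes of the lists around the members, 31 were tested, 6 rose and only Lias, kept through its HFD reads, was called lower, beside 5.38% and 8.25% of all genes tested, and the median log2 fold change was 0.31. With RPKM as deposited 3 of the 31 were called higher, Idh3g, Mpc2 and Idh1 being lost, beside 4.05% of all genes tested. The LYC libraries lay wholly above the HFD libraries for 10 of the 31 and wholly below for 3, Pdk1, Sdhc and Lias, on either scale, beside 9.87% and 27.5% of all genes as deposited and 14.9% and 24.1% over the TMM factor. Of these 6 calls, those of Idh3g, Mpc2 and Idh1 had log2 fold changes close to the limit of 1 and were lost in 5, 4 and 3 of 18 alternatives, while Sdhb, Mdh1 and Got1 were called in all 18.

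**Figure D3:**
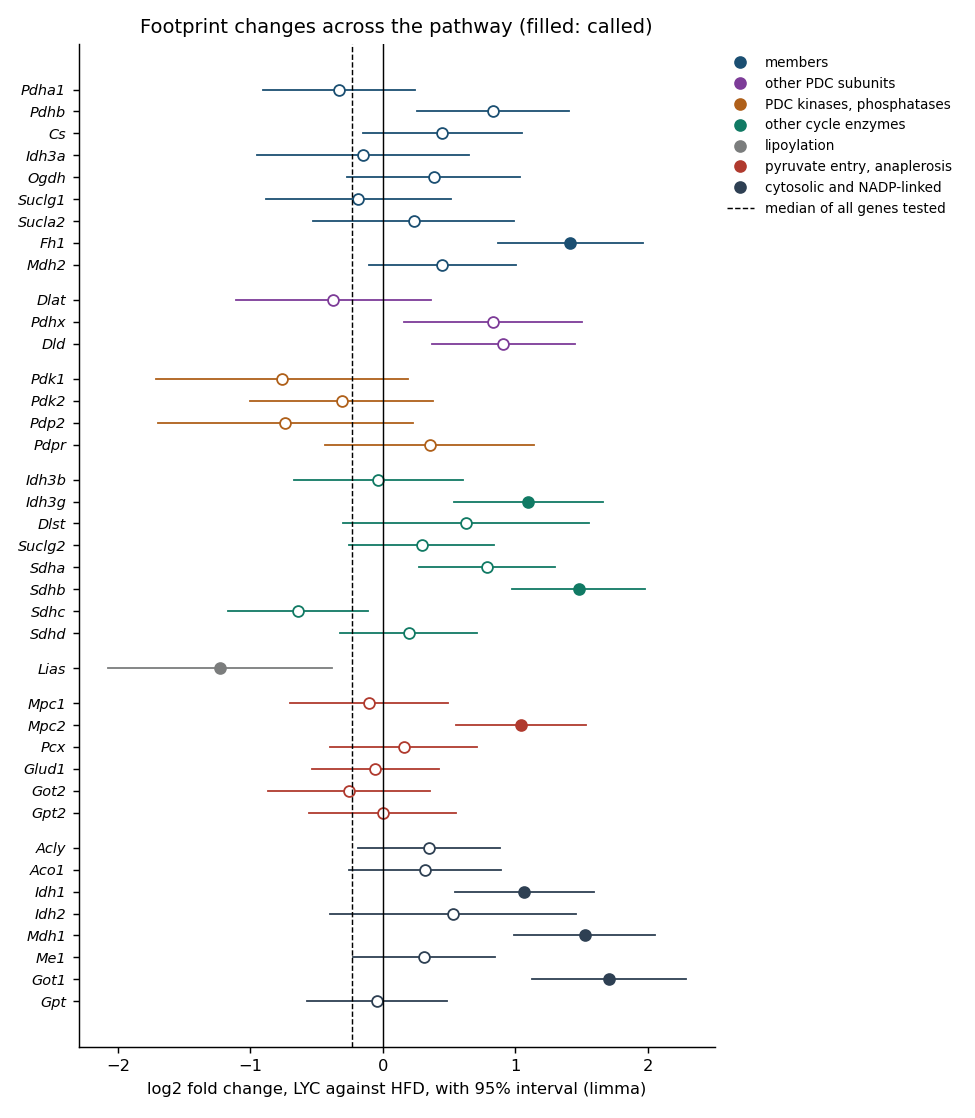
Log2 fold change of LYC against HFD with its 95% interval (limma, horizontal axis) for the 9 members and other tested genes of the pathway, coloured by list. Filled points were called, and the dashed line marks the median of all 5796 genes tested at -0.24. That median was 0.07 among genes with at least 10 reads in each library. Fh1, Sdhb, Mdh1 and Got1 lie between 1.41 and 1.71, and 8 of the 9 members lie above the dashed line.

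The promoter of Fh1 is shown as that of the member that rose. The 250 bases before its RefSeq start lie at chr1:175625636-175625885 (GRCm38.p6, minus strand) and are 52.8% G or C, with the single motif match in capitals.
Fh1: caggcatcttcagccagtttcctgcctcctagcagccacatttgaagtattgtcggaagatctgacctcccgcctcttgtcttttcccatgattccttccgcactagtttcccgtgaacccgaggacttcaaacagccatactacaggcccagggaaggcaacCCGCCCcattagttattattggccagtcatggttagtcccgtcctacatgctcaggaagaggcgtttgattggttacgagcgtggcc
The capitals are GGGCGG, the Sp1 letters, read on the other strand, 87 to 82 bases before the start. Windows of 300 bases (250 before and 50 after the start) were held for 8 members, all but Idh3a, and were searched on both strands for 7 motifs, each counted on its own. Ogdh has 6 such windows and the other 7 members 1 each, so a gene counts when any of its windows holds the letters. GGGCGG was in windows of 6 members (Cs, Fh1, Mdh2, Ogdh, Pdhb and Sucla2), in 38.2% of 27025 genes and in 35.7% of their 32851 windows. The CRE letters TGACGTCA were in those of Mdh2 and Ogdh and in 2.03% of all genes, the NRF1 motif in that of Sucla2 and in 5.19%, and the E-box letters CACGTG in those of Ogdh and in 8.09%. TCAAGGTCA (ERR element, 0.466% of all genes), CCGGAAGT (ETS, 4.31%) and the YY1 motif (0.755%) matched 0 members, and the windows of Pdha1 and Suclg1 held none of the 7.

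**Figure D4:**
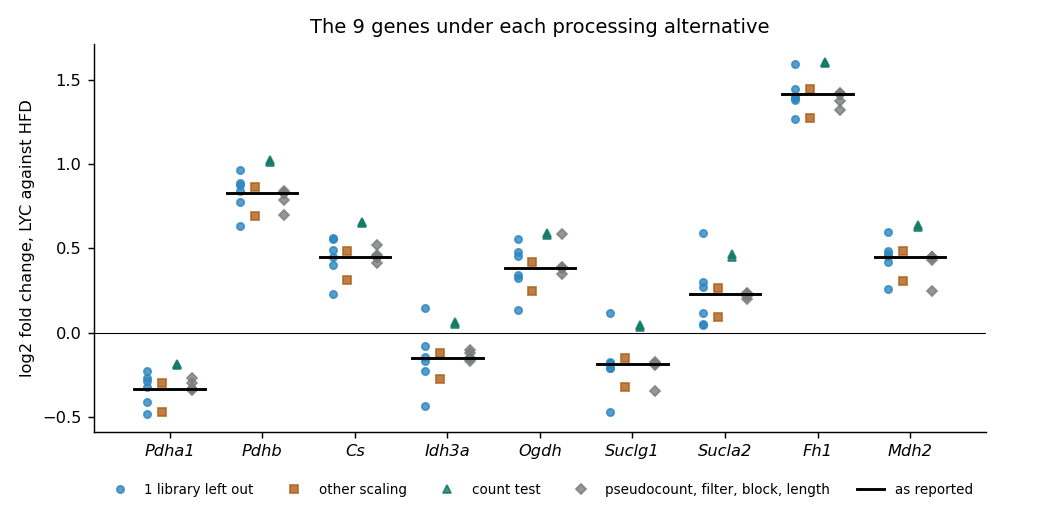
Log2 fold change of LYC against HFD of the 9 genes as reported (black bars) and under each processing alternative, grouped as 1 library left out, other scaling, count tests, and pseudocount, filter, block or gene length. Fh1 stays at 1.26 to 1.61, Pdha1 stays below 0 at -0.48 to -0.18, and the values of Idh3a and Suclg1 lie on both sides of 0.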

How the data were processed

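For each of HFD and LYC, 3 Ribo-seq libraries of liver were analysed. The authors cleaned reads with cutadapt and bowtie2, mapped them to GRCm38/mm10 by STAR, and counted genes by FANSE2. Versions, annotation and filters are not given in the sources used here. The authors deposited RPKM for Ribo-seq, and read counts with RPKM for the libraries labelled RNA-seq. The submitters' processing notes name cutadapt, Bowtie2 and mm10.

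Reads were recovered as whole multiples of what 1 read is worth, within 0.02 of a whole number. The gene length implied by the second table gave whole reads for 11129 of 15749 genes above 0, and a length was fitted for the other 4620, Ogdh and Sucla2 among them. In a library 71.9% to 72.4% of values above 0 were whole with the table's length. Among the 25033 entries, 26 carried dates as names, and 4 with a name in common were not tested.

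RPKM over the TMM factor, plus 1, was fitted on the log2 scale with limma's mean-variance trend, over genes kept by filterByExpr, with Benjamini-Hochberg adjustment. Subunit ratios had exact permutation tests, two-sided. Alternatives were other scalings, pseudocounts, filters and limits, edgeR's quasi-likelihood test (489 genes called higher, 401 lower) and DESeq2 on recovered reads, a replicate block, a gene-length trend, and each library left out. The fits were tested on simulated data.

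The members, lists and motifs were chosen with earlier results of these data known. Of the lists, called genes, the gene with the smallest p where none was called, and genes of the subunit pairs were named, except 1 gene and its ratio, which are not reported here though they stay in the counts, medians and adjustment. Besides these, Pdhx, Sdha, Sdhc, Sdhd, Mpc1, Got2, Idh2, Map3k15, Pdha2 and Kmo were added after their values were seen or for their position. Gene positions came from RefSeq, GRCm38.p6, whose promoter table held 8 of the 9 members. Start codons came from GENCODE vM21. Sequences of the proteins were not used here.

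The fits ran in R 4.3.3 with DESeq2 1.42.0, edgeR 4.0.16 and limma 3.58.1. Ratios, sequences and plots were made in Python 3.11.15 with matplotlib 3.10.9, scipy 1.17.1, pandas 2.3.3 and numpy 2.4.6.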

Additional observations from a re-analysis of the deposited data

How the results depend on the processing

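Over 18 alternatives 1 or 2 members were called higher and 0 lower. The count was 2 with edgeR and 2 with DESeq2, which added Pdhb, and 1 in all others, the replicate block and each library left out included (1 to 1). Fh1 was called each time, and its log2 fold change in the block was 1.41. The members' median was 0.14 to 0.59, and 0.14 to 0.56 with a library left out. Values on the other side of 0 were, for Idh3a, 0.054 with edgeR, 0.066 with DESeq2 and 0.15 without LYC1 (-0.43 to 0.15 with a library left out). For Suclg1 they were 0.035, 0.047 and, without LYC3, 0.12 (-0.47 to 0.12). For Idh3b they were 0.00038 with TMM factors free of small RNA genes, 0.15 with edgeR, 0.16 with DESeq2, 0.02 without HFD1, 0.07 without LYC1 and 0.13 without LYC3 (-0.30 to 0.13). The causes were not tested.

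With a library left out, log2 ratio differences were -1.28 to -1.06 for Pdha1/Pdhb, -0.10 to 0.22 for Pdha1/Dlat (-0.10 without HFD2), -0.32 to 0.091 for Idh3a/Idh3b (0.091 without LYC1), -1.53 to -0.98 for Idh3a/Idh3g, -0.53 to -0.07 for Ogdh/Dlst, -0.53 to -0.26 for Suclg1/Sucla2, -0.35 to 0.35 for Sucla2/Suclg2 (0.35 without LYC3) and 0.90 to 1.03 for Fh1/Mdh2. Such subsets cannot reach an exact permutation p below 0.2.

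Over all genes 312 were called higher and 478 lower. These counts were 235 and 645 with RPKM as deposited, 357 and 877 without a filter, 489 and 401 with edgeR, 510 and 390 with DESeq2, 254 and 127 of the 2516 genes with at least 10 reads in each library (10.1% and 5.05%), 257 and 298 with a pseudocount of 5, 156 and 138 at p below 0.001, and 214 to 382 and 230 to 765 with a library left out. The median fold change of all genes was 0.07 among genes with at least 10 reads, a filter that Idh3a did not pass. Other pathway genes called higher numbered 6, with 3 with RPKM as deposited, 4 at p below 0.001, 4 with the trend on gene length removed and 5 to 8 in the rest. Deviations from the group means correlated at 0.11, 0.03 and 0.01 between libraries of the same replicate number, and at -0.10 to 0.06 between the others. With 3 libraries in a group these values cannot tell whether the libraries are paired. The block called 305 and 442 genes.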

Other observations

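The 3 genes outside the members with the profile most like the members' mean, over 6 libraries, were Wapl, Phb2 and Adh1, with root mean square differences of 0.0542, 0.0559 and 0.0665 on the log2 scale. Wapl frees cohesin from chromatin, Phb2 is a scaffold protein of the inner mitochondrial membrane, and Adh1 is the liver's alcohol dehydrogenase.

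The libraries labelled RNA-seq resembled the Ribo-seq libraries one by one. Across 24586 genes, which are not independent replicates, each was closest to a Ribo-seq library of its own group, at a Pearson r of 0.928 to 0.958. The number was the same in 3 of 6, all LYC, while HFD1, HFD2 and HFD3 of that table were closest to HFD2, HFD3 and HFD1 of Ribo-seq. No test was made on them, and they were not used to set footprints against mRNA. In that table the mean RPKM of 8 of the 9 members was lower in LYC than in HFD, as was that of 90.2% of the 5732 genes tested in Ribo-seq and listed there. Fh1 alone had a higher mean in LYC, with 97.53, 83.7 and 76.2 RPKM in HFD and 119, 158 and 98.08 RPKM in LYC. Its lowest LYC value was only just above its highest HFD value. The LYC libraries lay wholly below the HFD libraries for 4 members and wholly above for Fh1, beside 63.8% and 2.76% of those genes. Pdha1 had 39.1 to 45.5 RPKM in HFD and 15.1 to 22.3 in LYC, Idh3a 10.9 to 16.3 and 3.70 to 10.0, Suclg1 97.0 to 123 and 34.5 to 79.0, and Sucla2 38.2 to 54.7 and 17.2 to 37.4. The other 4 members overlapped, Pdhb at 45.2 to 61.2 RPKM in HFD and 39.0 to 69.4 in LYC. The tables were normalised separately, so levels were not compared across them.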
